A study of Mus musculus with 20 samples.

Results

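The genes described here are 40 mouse genes of sterol, SREBP and lipid synthesis, out of 56239 genes counted. They were taken by symbol, 18 as enzymes of cholesterol synthesis, 5 as controllers of SREBP, 9 for sterol transport, efflux, storage and LXR, and 8 for fatty acid synthesis, and all 40 were matched to an Ensembl gene identifier. Of the 40, 39 passed the count filter, and Mvd was listed at 0 in all 20 libraries. Chromatin-associated RNA, which is enriched for transcripts still being made, was sequenced from B3 cells, a mouse pre-B line first derived from a lymphoma. All cells carried Ikaros-ERt2 (IKZF1-ERt2), the zinc finger factor IKZF1 fused to a tamoxifen-responsive domain, brought in by retrovirus and followed by sorting for GFP. The groups were untreated cells (0 h) and cells given 500 nM 4-hydroxytamoxifen (4-OHT), which moves the fusion into the nucleus, for 30 min, 1 h, 2 h, 6 h, 12 h, 15 h, 18 h, 21 h or 24 h, with 2 replicates each. No library had 4-OHT without the fusion, and none was left untreated past 0 h, so the fusion, the drug itself and time in culture cannot be told apart in any difference given here. The replicates come from 1 cell line, and p-values measure the spread between libraries that may share a culture.

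Cholesterol is built from acetyl-CoA through mevalonate, squalene and lanosterol. The transcription factors SREBP1 and SREBP2 (genes Srebf1 and Srebf2) drive the genes of these steps and of fatty acid synthesis: when membranes hold little sterol, SCAP escorts them from the endoplasmic reticulum to be cleaved, and when sterol is plentiful, the INSIG proteins hold SCAP back. LXR (genes Nr1h2 and Nr1h3), which binds oxidized sterols, drives the opposite arm, in which ABCA1 and ABCG1 export cholesterol and MYLIP marks the LDL receptor for destruction. EBP and DHCR7 together form the antiestrogen binding site of microsomes, to which tamoxifen-like ligands bind; sterol synthesis was not measured here.

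Total counts ran from 33296158 to 46868954 per library, and values are given as CPM, counts scaled to library size, after TMM scaling, with standard errors (SE) and Benjamini-Hochberg adjusted p-values from edgeR's quasi-likelihood fit of all 16601 tested genes; a gene is called at an adjusted p under 0.01. In bulk RNA, a change in the cells sampled and a change in RNA per cell cannot be told apart. Replicates of a time point correlated at 0.994 to 0.996 over these genes. Of 12 pre-B markers, 10 were above 0 with a summed level of 8643 to 17017 CPM, while Rag1 and Rag2 averaged 3 counts or fewer, each lying inside another annotated gene. The summed markers of T, myeloid and erythroid cells and of liver and adipose tissue stayed at or below 2.63 CPM. All these marker sums were scaled to total counts alone, without TMM. Ikzf1, whose reads from the fusion and from the cell's own gene cannot be told apart, was at 4845 and 4838 CPM at 0 h and at 9227 and 8380 CPM at 24 h.

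Most cholesterol synthesis genes rose in the first 6 h, fell steeply between 6 h and 12 h, and partly came back by 24 h. At 6 h, 29 of the 39 tested members were higher than at 0 h and 7 lower, against 30% and 27.3% of all genes; with a fold above 2 as well, 12 were higher and 1 lower, against 10.9% and 9.13%. From 6 h to 12 h, 25 fell and 4 rose, against 13.5% and 14% of all genes, and 22 of the 25 fell by more than 2-fold, which 2.11% of all genes did. The members' median log2 difference was 0.70 at 6 h against 0 h and -1.18 at 12 h against 6 h, where the medians over all genes were 0.02 and -0.0015. Both comparisons use the 6 h libraries. No library was taken between 6 h and 12 h.

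**Figure D1:**
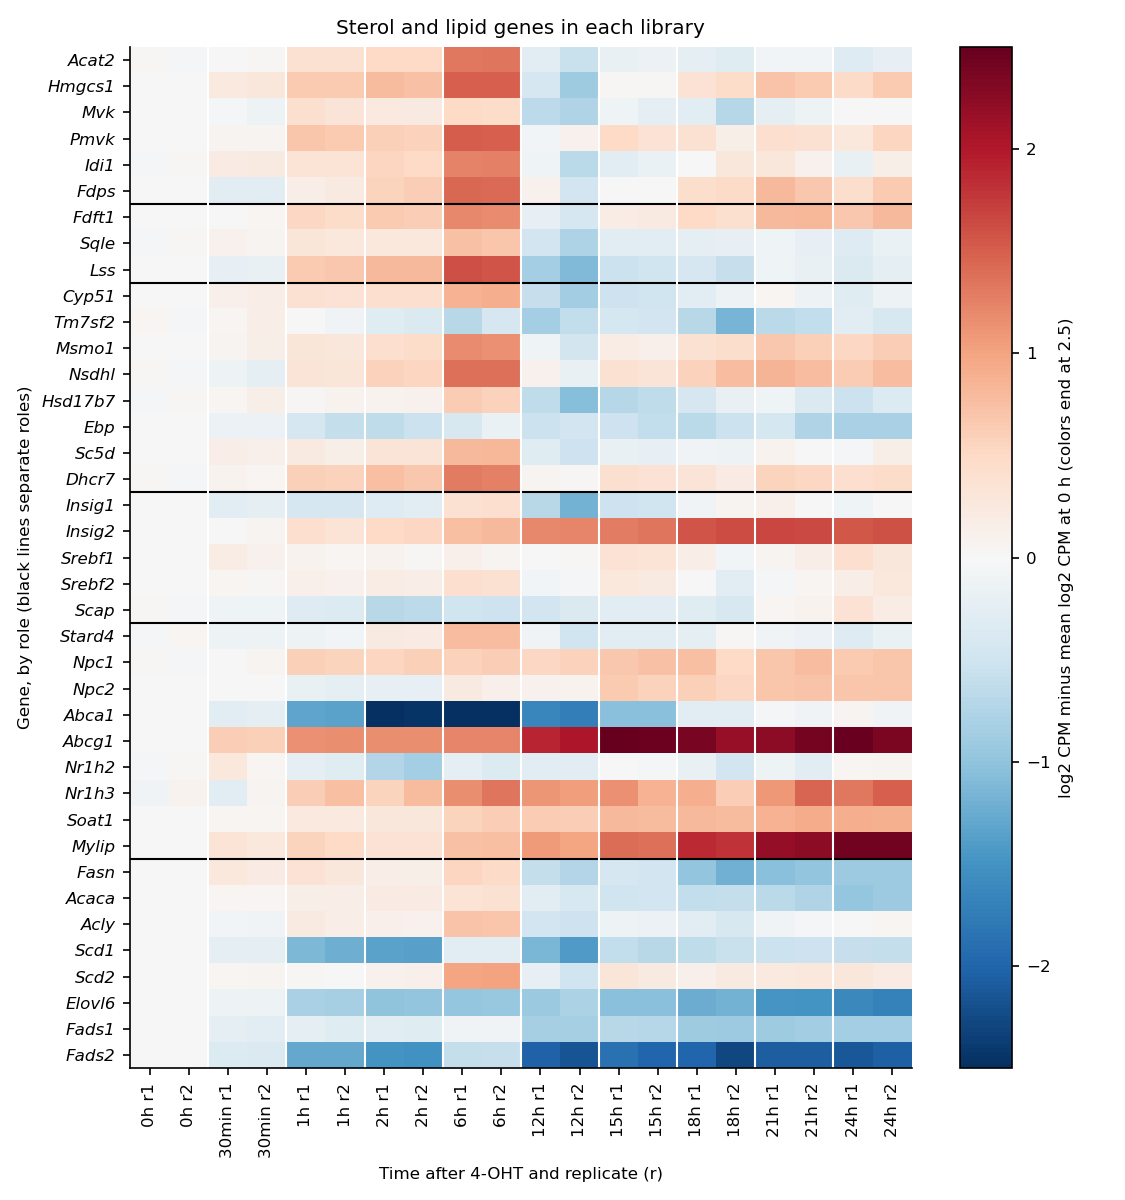
Heat map of the 39 tested genes in all 20 libraries, as log2 CPM minus the gene's mean log2 CPM at 0 h, with black lines between roles and colors ending at 2.5 in each direction. In the upper 3 blocks, all enzymes are pale or blue at 12 h and all but Tm7sf2 and Ebp are red at 6 h, Abca1 is dark blue at 2 h and 6 h and pale again by 21 h, and Abcg1, Insig2 and Mylip darken to red late.

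The other time points frame this wave. At 30 min, 3 members were higher and 4 lower, against 3.7% and 4.74% of all genes, and none of the 17 tested enzymes was called. At 1 h, 20 were higher and 9 lower (19.2% and 17.1% of all genes), and at 2 h, 22 were higher and 10 lower (23.9% and 23.8%), of which 1 and 3 changed by more than 2-fold (6.25% and 6.91%). At 12 h, 6 were higher than at 0 h and 25 lower, against 31.2% and 29.5%. Between 12 h and 24 h, 27 rose and 3 fell, where 25.1% of all genes were called in each direction. At 24 h, 18 were higher than at 0 h and 12 lower, with a median of 0.06 and against 35.4% and 36.1% of all genes, and 4 and 2 of them changed by more than 2-fold (20% and 20.1%). With library totals as the only scaling, which moved the median of all genes at 24 h by -0.26, the split was 12 higher and 18 lower, and without replicate 1 of 24 h, 7 were lower. Compared with 2 h, 11 were higher and 14 lower at 24 h (33.5% and 32.9%; 9 and 20 with library totals). Over the whole course, 19 of 39 changed by more than 2-fold at some time point, against 51.9% of all genes, a share near the background. The mean level of 22 of the 39 was highest at 6 h, as for 7.23% of all genes, and that of 15 was lowest at 12 h, as for 3.49%.

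Promoters were read for the members given one in the set of RefSeq promoters used here (GRCm38.p6). Each was 250 bases before and 50 after the start of transcription. The set had a promoter for 31 of 40, and the members without an entry are Fdps, Fdft1, Sqle, Stard4, Npc1, Abcg1, Scd1, Scd2 and Fads1. The sterol response element, through which SREBP binds DNA, was searched as TCACNCCAC and, in a shorter form inside it, as TCACNCCA, on both strands. The long form was in 1 of the 31 promoters, that of Hmgcs1, and in 1.44% of 27025 genes; the short form was in 3, those of Hmgcs1, Msmo1 and Srebf2, and in 4.97% of genes. CCAAT, the box of NF-Y, which commonly works beside SREBP, was in 23 of the 31 and in 41.1% of genes, and among the 15 enzymes with a promoter all but Acat2 had it. The Sp1 box GGGCGG was in 25 (38.2% of genes). The LXR element, AGGTCA repeated after 4 bases, was in none, as in nearly all genes (0.0148% hold it). Only this exact form was searched, and it is so rare that its absence does not show that a promoter lacks an LXR element. The study's IKZF1 motifs GGAA and GGGA, at 4 letters each, were in 29 and 30 of the 31 and in 96.5% and 95.5% of genes.

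The upstream stretches of 5 members are printed because they span the patterns described next: Hmgcs1 and Lss moved most among the enzymes, Insig1 and Srebf2 are the controllers, and Abca1 moved the other way. Each is given 5′ to 3′ on the gene's own strand up to the nearest annotated exon, and capitals mark the sterol response element in its long or short form and CCAAT, written ATTGG where it lies on the other strand. The positions are chr13:119690101-119690350 (plus strand) for Hmgcs1, chr10:76531355-76531587 (plus) for Lss, chr5:28071162-28071362 (plus) for Insig1, chr15:82147019-82147180 (plus) for Srebf2 and chr4:53159896-53160145 (minus) for Abca1, in GRCm38.p6.
Hmgcs1: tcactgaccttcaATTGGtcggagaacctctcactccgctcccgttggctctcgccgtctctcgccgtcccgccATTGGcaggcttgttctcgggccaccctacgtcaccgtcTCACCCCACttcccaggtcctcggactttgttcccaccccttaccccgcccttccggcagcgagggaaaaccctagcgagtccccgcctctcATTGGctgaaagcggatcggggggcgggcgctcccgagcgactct
Lss: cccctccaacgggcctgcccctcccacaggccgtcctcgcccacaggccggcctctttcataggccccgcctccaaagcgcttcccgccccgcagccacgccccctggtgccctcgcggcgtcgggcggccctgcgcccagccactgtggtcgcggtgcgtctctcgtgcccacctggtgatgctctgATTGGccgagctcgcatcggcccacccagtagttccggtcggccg
Insig1: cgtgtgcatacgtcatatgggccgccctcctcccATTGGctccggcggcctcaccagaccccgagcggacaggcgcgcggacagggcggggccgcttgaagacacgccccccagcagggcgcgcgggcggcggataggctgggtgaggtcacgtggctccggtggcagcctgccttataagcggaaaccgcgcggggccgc
Srebf2: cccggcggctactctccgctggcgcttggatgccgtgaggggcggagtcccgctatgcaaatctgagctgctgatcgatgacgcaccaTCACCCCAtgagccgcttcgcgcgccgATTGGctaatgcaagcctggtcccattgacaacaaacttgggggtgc
Abca1: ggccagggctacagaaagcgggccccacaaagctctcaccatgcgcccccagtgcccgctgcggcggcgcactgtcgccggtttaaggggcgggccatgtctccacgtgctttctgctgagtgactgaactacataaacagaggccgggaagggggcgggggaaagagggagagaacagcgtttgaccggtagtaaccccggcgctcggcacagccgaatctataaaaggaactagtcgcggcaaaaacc
In Hmgcs1 the sterol element starts 137 bases before the start of transcription and lies between CCAAT boxes. The stretch of Srebf2 has the short element 162 bases before the start with a CCAAT box after it, those of Lss and Insig1 have a CCAAT box and no such element, and that of Abca1 has neither. These are matches of letters in a short window; no binding of SREBP was measured here.

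All 6 tested genes of the mevalonate steps, which turn acetyl-CoA into the isoprenoid farnesyl diphosphate, rose by 6 h and fell between 6 h and 12 h. Of all genes, 5.1% were called in both of these steps. Hmgcs1 makes HMG-CoA, the substrate of the pathway's rate-limiting step. Its level was 138 and 139 CPM at 0 h, 165 and 169 after 30 min, 218 and 217 after 1 h, 239 and 232 after 2 h, 391 and 391 after 6 h. It was then 104 and 74.7 CPM after 12 h, 141 and 142 after 15 h, 177 and 189 after 18 h, 228 and 218 after 21 h, 193 and 219 after 24 h. The 2 libraries of 6 h stand above all others and those of 12 h below all others, without overlap. The log2 change was 0.65 (SE 0.0839, adjusted p = 1.32e-06) at 1 h and 1.497 (SE 0.0843, adjusted p = 1.18e-12) at 6 h. From 6 h to 12 h it fell by 2.14 (SE 0.0875, adjusted p = 7.32e-14) to below its 0 h level, and it was 0.57 above 0 h at 24 h (adjusted p = 2.59e-06).

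Acat2, which joins 2 acetyl-CoA molecules at the head of the pathway, had 56.5 and 54.4 CPM at 0 h, 56.1 and 56.3 after 30 min, 72.5 and 72.5 after 1 h, 78.3 and 78.2 after 2 h, 139 and 139.6 after 6 h. Later it had 46.2 and 37.9 CPM after 12 h, 49.0 and 49.8 after 15 h, 47.1 and 45.0 after 18 h, 52.6 and 52.8 after 21 h, 44.1 and 48.3 after 24 h. The 6 h peak stands far outside the other libraries, and every later value lies below both of 0 h: the log2 change was 1.33 (SE 0.0588, adjusted p = 2e-14) at 6 h, -0.40 at 12 h (adjusted p = 6.97e-06) and -0.26 at 24 h (adjusted p = 0.000627; 0.0226 without replicate 1 of 24 h). Fdps makes farnesyl diphosphate. It was measured on only 0.86 kb, since 89.7% of its span is shared with other annotated genes, and its counts were 180 to 780 per library. Fdps read 6.22 and 6.33 CPM at 0 h, 5.20 and 5.19 after 30 min, 7.06 and 7.30 after 1 h, 9.26 and 9.58 after 2 h, 16.9 and 16.8 after 6 h. From 12 h it read 6.73 and 4.49 CPM after 12 h, 6.31 and 6.36 after 15 h, 8.53 and 8.79 after 18 h, 11.0 and 9.96 after 21 h, 8.50 and 9.82 after 24 h. It rose by 1.43 at 6 h (SE 0.103, adjusted p = 7.99e-11) and fell by 1.60 to 12 h (SE 0.109, adjusted p = 2.14e-10). Of the other mevalonate genes, the kinases Mvk and Pmvk and the isomerase Idi1 rose by 0.47 to 1.497 at 6 h and fell by 1.18 to 1.62 between 6 h and 12 h. Mvd, the decarboxylase between them, lies wholly within Gm20388 on the opposite strand. Of 707 protein-coding genes covered like this by opposite-strand genes alone, 98.7% were at 0 in every library, against 18.4% of genes with no overlap, so the 0 of Mvd is not a measure of its transcription.

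**Figure D2:**
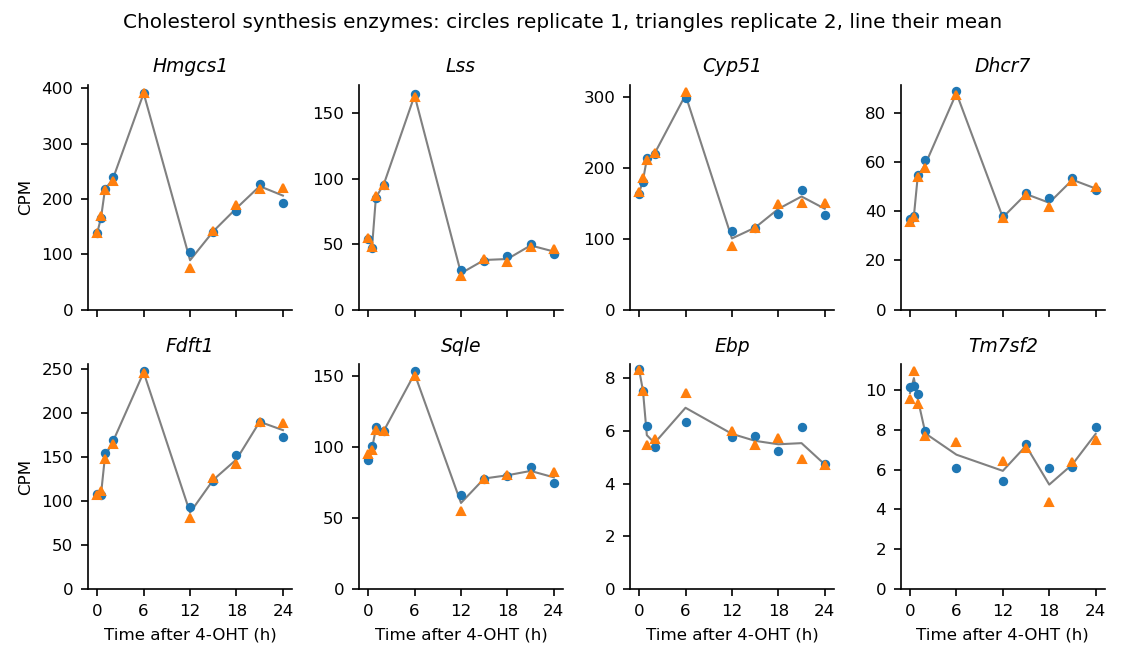
CPM against time for 8 cholesterol synthesis enzymes, with a circle for replicate 1, a triangle for replicate 2 and a line through their mean; each vertical axis starts at 0. Hmgcs1, Lss, Cyp51, Dhcr7, Fdft1 and Sqle peak at 6 h and are more than 2-fold lower at 12 h, while Ebp and Tm7sf2, at under 11 CPM, have means below their 0 h level at both times.

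The 3 genes that commit farnesyl diphosphate to sterols, by way of squalene and its folding to lanosterol, moved in the same way. Lss, lanosterol synthase, had the largest fall of any member between 6 h and 12 h. It was at 54.3 and 54.4 CPM at 0 h, 47.4 and 48.0 after 30 min, 85.3 and 86.5 after 1 h, 95.5 and 95.5 after 2 h, 165 and 162 after 6 h. Its later values were 30.2 and 25.3 CPM after 12 h, 37.5 and 38.3 after 15 h, 40.8 and 36.5 after 18 h, 50.4 and 47.7 after 21 h, 42.4 and 46.3 after 24 h. At 1 h both libraries were already above both of 0 h, and at 12 h both were below, by 0.97 on the log2 scale (SE 0.0652, adjusted p = 1.87e-11). Lss rose by 1.59 at 6 h (SE 0.0591, adjusted p = 9.57e-16), or 3.01-fold, and fell by 2.56 to 12 h (SE 0.0639, adjusted p = 3.16e-17). At 24 h it was 0.29 below 0 h (adjusted p = 0.000245), a call lost without replicate 1 of 24 h (adjusted p = 0.0108). Of its span, 44.1% is shared with other genes.

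Fdft1, squalene synthase, was at 109 and 107 CPM at 0 h, 107 and 111 after 30 min, 154 and 148 after 1 h, 169 and 165 after 2 h, 247 and 245 after 6 h. From 12 h on it was at 93.7 and 80.3 CPM after 12 h, 123 and 126 after 15 h, 152 and 143 after 18 h, 189.9 and 190.5 after 21 h, 173 and 189 after 24 h. Unlike Lss, Fdft1 returned above its starting level, with both 24 h libraries higher than both of 0 h (log2 change 0.75, SE 0.0549, adjusted p = 4.37e-11). At 6 h the change was 1.19 (SE 0.0546, adjusted p = 3.35e-14) and from there it fell by 1.504 to 12 h (SE 0.0558, adjusted p = 1.88e-14). Sqle, squalene epoxidase, a rate-controlling enzyme of the later pathway, had 90.8 and 95.1 CPM at 0 h, 101 and 97.6 after 30 min, 114 and 112 after 1 h, 111 and 111 after 2 h, 153 and 149.7 after 6 h. Thereafter it had 66.5 and 54.7 CPM after 12 h, 77.8 and 77.8 after 15 h, 79.9 and 80.3 after 18 h, 85.7 and 80.7 after 21 h, 74.6 and 82.7 after 24 h. Its peak was lower, at 0.71 (SE 0.0602, adjusted p = 1.19e-09), and it stayed below 0 h from 12 h on, by 0.62 at 12 h (adjusted p = 1.66e-08) and by 0.24 at 24 h (adjusted p = 0.00149). The call at 24 h was lost without replicate 2 of 0 h (adjusted p = 0.0210) or replicate 1 of 24 h (0.0495).

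Of the 8 genes that turn lanosterol into cholesterol, 6 rose by 6 h and fell from 6 h to 12 h, as did 5.1% of all genes. Tm7sf2 and Ebp had no peak at 6 h and were below 0 h at 12 h. Cyp51 removes the first of the extra methyl groups of lanosterol. It was at 163 and 165 CPM at 0 h, 179 and 185 after 30 min, 214 and 211 after 1 h, 219.6 and 221 after 2 h, 299 and 307 after 6 h. It was at 111 and 89.9 CPM after 12 h, 116 and 116 after 15 h, 134 and 149 after 18 h, 169 and 150.2 after 21 h, 133 and 151 after 24 h afterwards. The change was 0.88 at 6 h (SE 0.0703, adjusted p = 3.97e-10), and Cyp51 then fell by 1.60 to 12 h (SE 0.0728, adjusted p = 4.19e-13). Msmo1, the sterol methyl oxidase, had 88.3 and 88.0 CPM at 0 h, 92.4 and 97.0 after 30 min, 109 and 108 after 1 h, 118 and 120.3 after 2 h, 199.7 and 195 after 6 h. Its later course was 82.3 and 63.8 CPM after 12 h, 101 and 96.8 after 15 h, 114 and 119.5 after 18 h, 141 and 133 after 21 h, 126 and 134 after 24 h. Msmo1 rose by 1.16 at 6 h (adjusted p = 2.95e-12), fell by 1.44 to 12 h (adjusted p = 1.21e-12), and was above 0 h again at 24 h by 0.56 (adjusted p = 2.19e-07).

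Nsdhl, the dehydrogenase that acts with Msmo1, had 48.3 and 46.9 CPM at 0 h, 43.3 and 41.0 after 30 min, 59.8 and 59.0 after 1 h, 70.7 and 69.3 after 2 h, 124 and 124 after 6 h. It then had 51.4 and 41.6 CPM after 12 h, 61.7 and 59.9 after 15 h, 71.2 and 80.9 after 18 h, 85.8 and 81.7 after 21 h, 74.2 and 81.2 after 24 h. It rose by 1.38 at 6 h (SE 0.0702, adjusted p = 2.08e-13), its 12 h libraries lay on either side of the 0 h level, and at 24 h it was 0.71 above 0 h (adjusted p = 9.6e-09). Hsd17b7, the ketosteroid reductase of the same complex, was not called at 1 h or 2 h (0.05 and 0.10, adjusted p = 0.696 and 0.371). It had 30.6 and 31.6 CPM at 0 h, 32.4 and 34.4 after 30 min, 31.6 and 33.0 after 1 h, 33.2 and 33.8 after 2 h, 48.1 and 46.4 after 6 h. Past 6 h it had 20.2 and 14.9 CPM after 12 h, 19.0 and 20 after 15 h, 23.4 and 27.3 after 18 h, 28.9 and 24.1 after 21 h, 21.5 and 24.6 after 24 h. It rose by 0.60 at 6 h (adjusted p = 7.95e-06) and fell by 1.44 to 12 h (SE 0.101, adjusted p = 3.42e-10). Sc5d, the desaturase before the last step, rose by 0.82 at 6 h and fell by 1.23 to 12 h.

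Dhcr7 and Ebp, the enzymes that form the antiestrogen binding site, did not move together. Dhcr7, the reductase of the last step, was at 37.0 and 35.4 CPM at 0 h, 38.2 and 37.6 after 30 min, 54.5 and 53.7 after 1 h, 60.6 and 57.7 after 2 h, 88.7 and 87.0 after 6 h. It was later at 37.9 and 37.0 CPM after 12 h, 47.4 and 46.4 after 15 h, 45.2 and 41.6 after 18 h, 53.4 and 52.0 after 21 h, 48.6 and 49.7 after 24 h. The 12 h libraries came back to the level of 0 h, and all others from 1 h on stand above it, with a change of 1.28 at 6 h (SE 0.0465, adjusted p = 6.42e-16), 0.05 at 12 h (adjusted p = 0.379) and 0.44 at 24 h (adjusted p = 3.06e-08). Ebp, the isomerase that shifts the sterol double bond, was low, with 159 to 387 counts per library. It was at 8.36 and 8.31 CPM at 0 h, 7.53 and 7.53 after 30 min, 6.21 and 5.48 after 1 h, 5.38 and 5.71 after 2 h, 6.33 and 7.44 after 6 h. Afterwards it was at 5.78 and 6.01 CPM after 12 h, 5.79 and 5.46 after 15 h, 5.26 and 5.74 after 18 h, 6.14 and 4.94 after 21 h, 4.74 and 4.72 after 24 h. All induced libraries of Ebp lie below those of 0 h. The change was -0.59 at 2 h (SE 0.098, adjusted p = 2.66e-05), -0.27 at 6 h (adjusted p = 0.0138, called under other settings) and -0.82 at 24 h (SE 0.104, adjusted p = 3.15e-07). Tm7sf2, a sterol reductase whose reaction the lamin B receptor can also carry out, was 0.54 below 0 h at 6 h (SE 0.110, adjusted p = 0.000181) and had 4.39 to 10.96 CPM over the course.

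**Figure D3:**
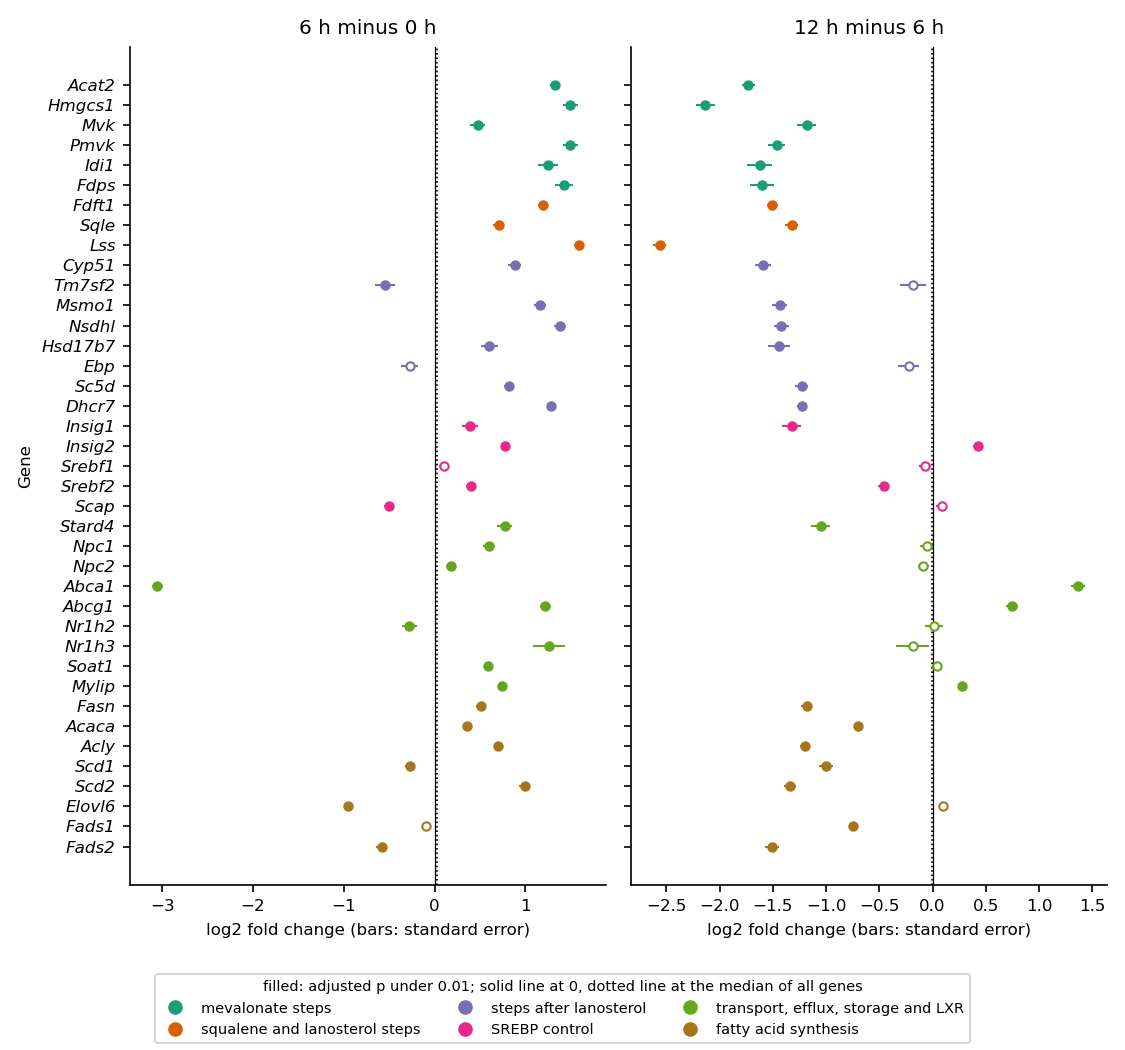
Log2 differences of the 39 tested genes for 6 h minus 0 h (left) and 12 h minus 6 h (right), with standard errors as bars, colors for roles and filled points for an adjusted p under 0.01; a solid line marks 0 and a dotted line the median of all genes. Of 17 enzymes, 15 are called to the right in the left panel and 15 to the left in the right panel, and Abca1 is at -3.05 and then at 1.37.

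The 17 tested enzymes together had a median of 0.50 at 2 h, 1.19 at 6 h, -0.41 at 12 h and -0.0048 at 24 h, all against 0 h. At 2 h, 13 were higher and 1 lower (23.9% and 23.8% of all genes). At 6 h, 15 were higher and 1 lower (30% and 27.3%). Between 6 h and 12 h, 15 fell, each by more than 2-fold (2.11% of all genes), and none rose. Between 12 h and 24 h, 13 rose and none fell (25.1% in each direction). At 24 h, 7 were above 0 h and 6 below, near the 35.4% and 36.1% of all genes. Of the 6, Acat2, Sqle, Lss and Hsd17b7 were not called without replicate 1 of 24 h. The 12 h libraries differed by more than the others: replicate 1 was the higher for 14 of the 17 enzymes, by a median of 0.28 on the log2 scale. The medians were -0.13 to 0.08 at the other time points. Replicate 1 was also the higher for 13 of the 17 at 21 h, and for only 3 at 24 h. With either 12 h library left out, 25 members were again lower at 12 h than at 6 h.

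The controllers of SREBP did not share a course. Insig1 and Insig2 encode the proteins that hold SCAP in the endoplasmic reticulum, Insig1 being itself a target of SREBP. Insig1 was at 115 and 116 CPM at 0 h, 96.1 and 99.7 after 30 min, 87.0 and 87.0 after 1 h, 93.1 and 95.3 after 2 h, 149.9 and 154 after 6 h. It was then at 71.1 and 50.8 CPM after 12 h, 80.6 and 81.5 after 15 h, 109 and 121 after 18 h, 126 and 114 after 21 h, 108 and 117 after 24 h. It was lower at 1 h (-0.41, SE 0.0871, adjusted p = 0.000507), higher at 6 h (0.39, adjusted p = 0.000378), lower at 12 h (-0.93, SE 0.09, adjusted p = 7.4e-09) and near its start at 24 h (-0.04, adjusted p = 0.657; -0.30, adjusted p = 0.00275, with library totals). The drop at 2 h, by 0.30 (adjusted p = 0.00603), was not called when any 1 library of 0 h or 2 h was left out (adjusted p = 0.0256 to 0.0448). Insig2 was at 20.3 and 20.2 CPM at 0 h, 20.2 and 21.3 after 30 min, 27.1 and 25.6 after 1 h, 28.6 and 29.0 after 2 h, 34.0 and 35.4 after 6 h. It went on to 46.3 and 47.0 CPM after 12 h, 49.2 and 51.2 after 15 h, 60.5 and 62.9 after 18 h, 64.0 and 64.0 after 21 h, 59.5 and 61.4 after 24 h. Unlike Insig1, it showed no drop at 12 h: both 12 h libraries stand above both of 6 h, and both of 24 h above both of 12 h. The change in Insig2 was 0.51 at 2 h (adjusted p = 2.4e-08), 0.78 at 6 h (adjusted p = 1.24e-11), 1.21 at 12 h (adjusted p = 5.01e-15) and 1.58 at 24 h (SE 0.0494, adjusted p = 1.19e-17), or 2.99-fold.

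Up to 12 h, Srebf2, which encodes the factor that acts mainly on cholesterol genes, moved in the direction of the enzymes but by less. The mean of Srebf2 was lowest at 18 h. It was at 358 and 351 CPM at 0 h, 366 and 362 after 30 min, 387 and 381 after 1 h, 401 and 398 after 2 h, 473 and 463 after 6 h. Its later values were 338 and 342 CPM after 12 h, 425 and 414 after 15 h, 354 and 296 after 18 h, 345 and 365 after 21 h, 400.0 and 423 after 24 h. It rose by 0.40 at 6 h (SE 0.0537, adjusted p = 1.14e-06) and fell by 0.46 to 12 h (adjusted p = 6.81e-07). Its change of 0.17 at 2 h (adjusted p = 0.00981) was not called when any 1 library of 0 h or 2 h was left out (0.0334 to 0.0696). That of 0.22 at 24 h (adjusted p = 0.00109) became -0.04 (adjusted p = 0.522) with library totals. It was not called either without replicate 2 of 0 h (adjusted p = 0.0143) or of 24 h (0.0226). Srebf1, the factor that acts mainly on fatty acid genes, had 129 and 129 CPM at 0 h, 146 and 140.0 after 30 min, 137 and 134 after 1 h, 136 and 133 after 2 h, 141 and 136 after 6 h. It had 131 and 133 CPM after 12 h, 166 and 163 after 15 h, 145 and 123 after 18 h, 136 and 145 after 21 h, 172 and 157 after 24 h later. It was not called at 2 h, 6 h or 12 h (0.06, 0.10 and 0.03, adjusted p = 0.401, 0.119 and 0.684; 0.00605 at 6 h with only the 4 libraries compared) and was 0.35 above 0 h at 24 h (adjusted p = 8.78e-06; 0.09, adjusted p = 0.193, with library totals). Scap, the escort of both factors, had 124 and 118 CPM at 0 h, 112 and 111 after 30 min, 96.6 and 95.3 after 1 h, 75.1 and 76.7 after 2 h, 85.6 and 84.9 after 6 h. From 12 h it had 86.5 and 94.4 CPM after 12 h, 100.5 and 101 after 15 h, 98.5 and 91.4 after 18 h, 125 and 129 after 21 h, 155 and 137 after 24 h. It was lowest at 2 h (-0.67, SE 0.0535, adjusted p = 5.92e-10), when 13 of the 17 enzymes were above 0 h, and ended 0.27 above 0 h at 24 h (adjusted p = 7.09e-05; 0.01, adjusted p = 0.823, with library totals).

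**Figure D4:**
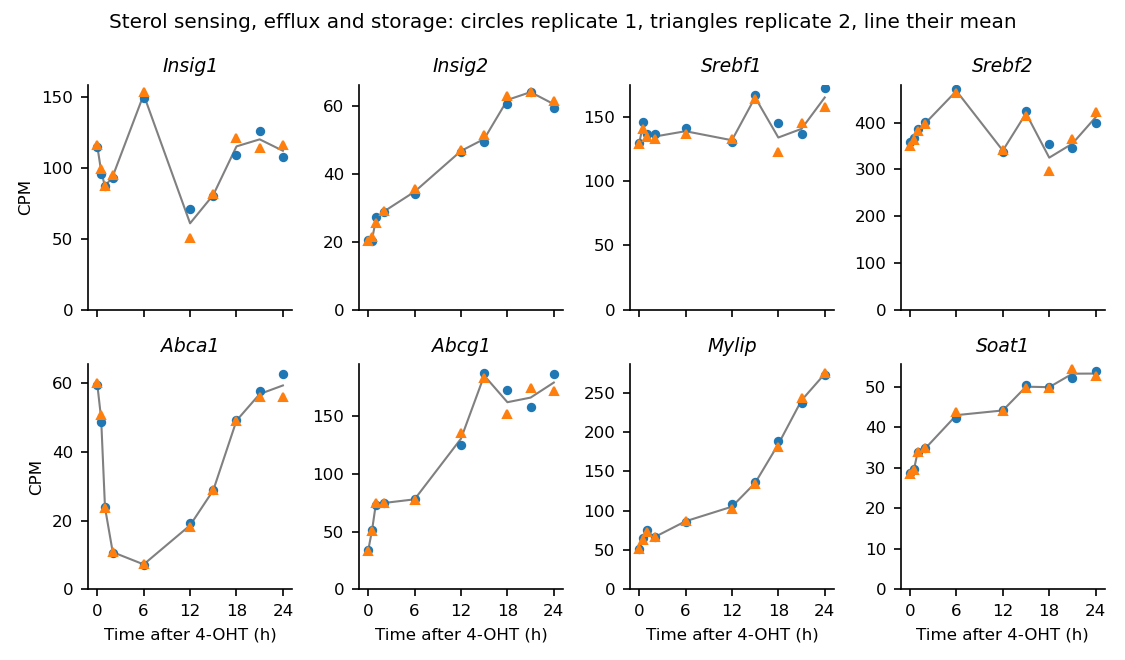
CPM against time for 8 genes of sterol sensing, efflux and storage, drawn as circles for replicate 1, triangles for replicate 2 and a line through their mean, from 0 on each vertical axis. Insig1 peaks at 6 h and drops at 12 h, Insig2, Mylip and Soat1 climb, Abcg1 climbs in 2 steps, and Abca1 falls to 6.98 and 7.42 CPM at 6 h and is at 62.8 and 55.9 CPM at 24 h.

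LXR drives Abca1, Abcg1 and Mylip among other genes. Abca1 fell and came back, while Abcg1 and Mylip rose. Abca1, which loads cholesterol onto apolipoproteins, was the member with the largest change. It was at 59.5 and 60.1 CPM at 0 h, 48.8 and 50.7 after 30 min, 23.9 and 23.7 after 1 h, 10.6 and 10.9 after 2 h, 6.98 and 7.42 after 6 h. Its recovery read 19.2 and 18.0 CPM after 12 h, 28.8 and 28.8 after 15 h, 49.3 and 49.0 after 18 h, 57.6 and 56.1 after 21 h, 62.8 and 55.9 after 24 h. Both libraries of 30 min were already below both of 0 h, by 0.26 (SE 0.0509, adjusted p = 0.001), and the log2 change was -2.47 at 2 h (SE 0.06, adjusted p = 1.51e-18) and -3.05 at 6 h (SE 0.0628, adjusted p = 4.53e-20), where 0.121 of the 0 h level was left. It then rose by 1.37 to 12 h (SE 0.0697, adjusted p = 2.09e-12) and by 1.68 from 12 h to 24 h (adjusted p = 2.09e-16), and ended at -0.01 (adjusted p = 0.857; -0.27, adjusted p = 0.000112, with library totals). Abcg1, which exports cholesterol to HDL, went the other way from the first time point. It had 33.8 and 33.2 CPM at 0 h, 51.5 and 50.6 after 30 min, 73.4 and 75.0 after 1 h, 74.9 and 74.6 after 2 h, 78.1 and 77.8 after 6 h. It reached 125 and 136 CPM after 12 h, 188 and 183 after 15 h, 172 and 152 after 18 h, 158 and 175 after 21 h, 187 and 172 after 24 h. Its change was 0.61 at 30 min (SE 0.0633, adjusted p = 6.37e-07), 1.16 at 2 h (adjusted p = 7.9e-13) and 2.42 at 24 h (SE 0.0614, adjusted p = 3.07e-19), or 5.35-fold. Mylip had 51.5 and 51.6 CPM at 0 h, 65.2 and 62.2 after 30 min, 75.3 and 72.7 after 1 h, 66.5 and 66.1 after 2 h, 86.0 and 87.0 after 6 h. It climbed on to 108 and 102 CPM after 12 h, 137 and 134 after 15 h, 189 and 181 after 18 h, 237 and 244 after 21 h, 273 and 276 after 24 h. It was 0.30 up at 30 min (SE 0.0418, adjusted p = 2.34e-05), 0.75 at 6 h (adjusted p = 7.72e-13) and 2.41 at 24 h (SE 0.041, adjusted p = 4.07e-22), or 5.32-fold.

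Of the LXR genes themselves, Nr1h3 (LXR alpha) was low, at 29 to 113 counts per library, from 0.907 and 1.01 CPM at 0 h to 2.39 and 2.69 CPM at 24 h (log2 change 1.40, SE 0.181, adjusted p = 3.98e-07). Nr1h2 (LXR beta) was 0.80 below 0 h at 2 h (SE 0.0888, adjusted p = 1.08e-07) and 0.06 above it at 24 h (adjusted p = 0.548). Soat1, which esterifies cholesterol for storage, rose without a drop at 12 h, from 28.7 and 28.5 CPM at 0 h to 53.9 and 52.7 CPM at 24 h (0.90, SE 0.0436, adjusted p = 3.06e-14). Npc1, which moves cholesterol out of lysosomes with Npc2, was 0.58 up at 1 h (adjusted p = 2.36e-07) and stayed between 0.54 and 0.74. Npc2 was 0.20 below 0 h at 2 h (log2 difference -0.20, adjusted p = 0.00304), 0.18 above it at 6 h (adjusted p = 0.00403) and 0.69 above it at 24 h. Stard4, a soluble sterol carrier, was the only one of the 9 in this group that rose by 6 h and then fell to 12 h. Its change was 0.77 at 6 h against 0 h and -1.05 at 12 h against 6 h. Unlike most enzymes, it did not come back, with a mean of 35.0 CPM at 12 h and 36.0 CPM at 24 h.

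The fatty acid genes fell into several courses. At 6 h, Fasn, Acaca, Acly and Scd2 were above 0 h and Scd1, Elovl6 and Fads2 below, against 30% and 27.3% of all genes. From 6 h to 12 h, 7 of the 8 fell (13.5%). At 12 h all 8 were below 0 h (29.5%). At 24 h 6 were, with a median of -0.88, and Scd2 was above (36.1% and 35.4%). Of the 4 that rose by 6 h, Fasn and Acaca were below 0 h at 24 h. Fasn, fatty acid synthase, had 178 and 174 CPM at 0 h, 212 and 203 after 30 min, 226 and 213 after 1 h, 198 and 194 after 2 h, 256 and 246 after 6 h. It had 116 and 105 CPM after 12 h, 131 and 126 after 15 h, 88.6 and 76.6 after 18 h, 85.2 and 88.3 after 21 h, 93.9 and 93.1 after 24 h afterwards. It rose by 0.51 at 6 h (SE 0.053, adjusted p = 2.35e-08), fell by 1.18 to 12 h (SE 0.0546, adjusted p = 4.94e-13) and, unlike the sterol enzymes, fell further to 24 h, by 0.24 (adjusted p = 0.000862). Elovl6, which extends palmitate to stearate, had no peak. It had 363 and 357 CPM at 0 h, 328 and 330.2 after 30 min, 205 and 203 after 1 h, 179.9 and 182 after 2 h, 185 and 186 after 6 h. Its values from 12 h were 190.1 and 208 CPM after 12 h, 174 and 175 after 15 h, 153 and 158 after 18 h, 129 and 128 after 21 h, 118 and 112 after 24 h. It fell by 0.82 at 1 h (SE 0.0383, adjusted p = 1.43e-13) and by 1.65 at 24 h (SE 0.0398, adjusted p = 1.29e-19). Fads2, the first desaturase in making long polyunsaturated fatty acids, had 169 and 170.3 CPM at 0 h, 134 and 131 after 30 min, 69.8 and 69.5 after 1 h, 59.9 and 59.4 after 2 h, 112 and 114 after 6 h. It stayed low after that, with 41.6 and 38.2 CPM after 12 h, 46.5 and 42.8 after 15 h, 42.6 and 35.0 after 18 h, 40.8 and 40.9 after 21 h, 38.8 and 41.3 after 24 h. It fell by 1.51 at 2 h (SE 0.0608, adjusted p = 6.55e-15), partly came back at 6 h, when it was 0.58 below 0 h (adjusted p = 1.48e-08), and was 2.09 below at 12 h (SE 0.0634, adjusted p = 2.61e-17) and 2.08 below at 24 h.

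**Figure D5:**
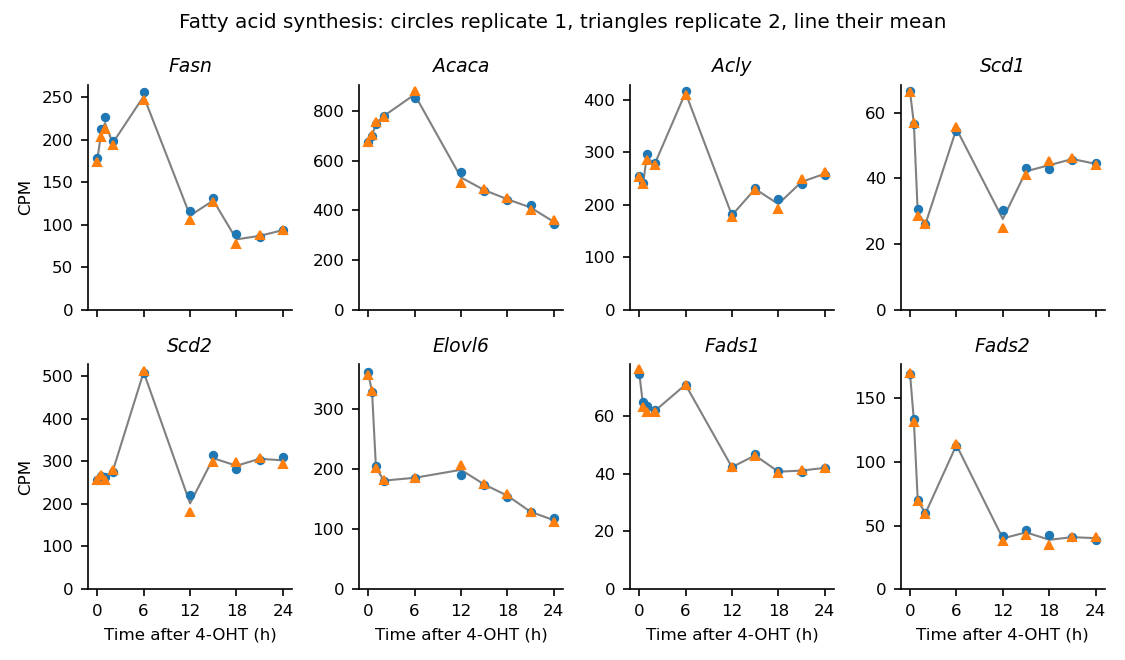
CPM against time for the 8 fatty acid synthesis genes, with circles for replicate 1, triangles for replicate 2 and a line through their mean; vertical axes start at 0. Acly and Scd2 peak at 6 h like the sterol enzymes, Scd1 and Fads2 fall early, rise at 6 h and fall again at 12 h, and Elovl6 declines from 357 to 363 CPM at 0 h to 112 to 118 CPM at 24 h.

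Of the 2 stearoyl-CoA desaturases, which introduce the double bond of oleate, Scd2 was the higher and had the course of the enzymes. It had 255 and 257 CPM at 0 h, 507 and 512 CPM at 6 h, and 222 and 181 CPM at 12 h. Scd1 had 66.5 and 66.4 CPM at 0 h, 26.2 and 25.9 CPM at 2 h, 54.4 and 55.7 CPM at 6 h, and 30.3 and 24.9 CPM at 12 h. Scd2 was called higher at 6 h (0.99, SE 0.0575, adjusted p = 1.96e-12) and Scd1 lower (-0.27, SE 0.0585, adjusted p = 0.000351), while both fell from 6 h to 12 h, by 1.34 and 1.00. Acly, which supplies acetyl-CoA from citrate, rose by 0.70 at 6 h, fell by 1.20 to 12 h and was back at 0 h level at 24 h (0.03, adjusted p = 0.508). Acaca, which makes malonyl-CoA, rose by 0.36 at 6 h and was 0.94 below 0 h at 24 h. Fads1, the partner of Fads2, was 0.84 below at 24 h.

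Likeness to the mean scaled profile of the enzymes was measured over the 20 libraries, which share their scaling and time points, with each enzyme left out of its own mean. Sc5d (Pearson r 0.98), Lss and Acly (both 0.96) and Idi1 (0.95) were the most alike, so a gene of the fatty acid arm stood among the enzymes. Stard4 was at 0.89, Scd2 at 0.83, Insig1 at 0.72 and Srebf2 at 0.66. Ebp and Tm7sf2 were at 0.09 and 0.07, Srebf1 at -0.09, Insig2 at -0.26 and Abca1 at -0.54, the lowest of the members, which 2.44% of 16562 other genes equalled or undercut.

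Levels between genes were compared as CPM per kb of the gene's span not shared with other genes, at 0 h. Scd2 was highest at 19.5, followed by Insig1 at 15.9, Hmgcs1 at 11.8 and Fasn at 9.40 CPM per kb. The replicates of each of these 4 differed by less than the gaps between them. Srebf2, at 6.33, was a little above Srebf1, at 5.56, and Insig2 was at 0.804 against the 15.9 of Insig1. By 24 h the gap between the INSIG genes had narrowed to 15.4 against 2.40. The counts include exons and introns, and exons make up 3093 of 7300 bases of Insig1 but 3473 of 28237 of Insig2. How far such differences in exon share shape the levels per kb was not tested. Abca1 and Abcg1 were both low at 0 h, at 0.463 and 0.556, and stood at 0.0558 and 1.295 at 6 h. Nr1h3 was the lowest, at 0.0807.

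Other genes of the same pathways were counted by lists. Of 12 genes of SREBP processing and turnover, 10 were tested; 6 rose and 2 fell at 6 h against 0 h (median 0.19), and 3 fell and 1 rose from 6 h to 12 h (median -0.04). Of all genes, 30% were higher and 27.3% lower at 6 h, and 13.5% fell and 14% rose to 12 h, against which these and the next counts are to be read. Of 12 other sterol and isoprenoid genes, 11 were tested; 5 rose and 2 fell at 6 h (median -0.06), and 5 fell and 2 rose to 12 h (median -0.12). A list of 8 other LXR-related genes included Rxra and Rxrb, which encode receptors, so the 8 are not all LXR targets. Of these 8, 5 were tested, of which 1 rose and 4 fell at 6 h (median -1.08). The same numbers held at 24 h against 0 h (median -1.32), where 35.4% and 36.1% of all genes were called. Of 16 other fatty acid and glycerolipid genes, 12 were tested; 6 rose and 4 fell at 6 h (median 0.22), and 6 fell and 1 rose to 12 h (median -0.25).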

How the data were processed

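Chromatin-associated RNA was measured in 20 libraries, 2 at each of 10 time points. The authors ran the nf-core/rnaseq pipeline with STAR on mm10 (GRCm38) and deposited the raw featureCounts counts of each gene, introns included and not normalized; the annotation release, the strand setting and the treatment of shared reads are not given in the sources used here. Time points and replicate numbers came from the titles. Among the count headers, only those of the 0 h libraries carry an extra suffix, whose meaning is not given in the sources used here. A minimum of 10 counts in 2 or more libraries left 16601 genes, which were tested in R 4.3.3 by the quasi-likelihood method of edgeR 4.0.16 with TMM scaling, all libraries and the time point as a factor, with Benjamini-Hochberg adjustment over all of them. The log2 fold changes, standard errors and CPM were computed from the deposited counts. DESeq2 1.42.0 served as an alternative. The steps were tested on simulated data. Gene spans came from GENCODE M21 (55154 of 56239 identifiers). The members, lists and tests were chosen with earlier results of these data known. Libraries were listed in full for the 3 members of each role with the widest range of mean log2 CPM (5 after lanosterol), and for Insig1, Insig2, Srebf1, Srebf2, Ebp and Dhcr7. The 6 h and 12 h counts were added after the values were seen. Same-numbered replicates did not deviate together, so no block was used. With 2 replicates per time point, each single comparison rests on the spread shared by all 20 libraries, and counts per library limit the precision of Nr1h3, Ebp, Tm7sf2 and Fdps most.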

Additional observations from a re-analysis of the deposited data

How the results depend on the processing

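Counts of called members kept within 1.5 times of those reported with DESeq2, with DESeq2 size factors, with library totals, with other filters, at an adjusted p under 0.05 and with only the 4 libraries compared. Of 25 members lower at 12 h than at 6 h, 25 were called under each of these. A fold minimum changed the counts by its construction: with a fold above 2 as well, 1 was above and 3 below 0 h at 2 h, 12 were above at 6 h, and 4 were above and 2 below at 24 h, while over the whole course 37 of 39 passed at a fold above 1.5 and 39 with no minimum. With 1 library left out at a time, the members above 0 h numbered 17 to 25 at 2 h, 28 to 29 at 6 h and 16 to 18 at 24 h, and those below numbered 8 to 11 at 2 h and 7 to 14 at 24 h. The 7 came without replicate 1 of 24 h, when Acat2, Sqle, Lss and Hsd17b7 were among those no longer called; the cause was not tested. Likewise 10 to 14 were higher and 12 to 16 lower at 24 h than at 2 h, and 19 to 21 changed over the course. The replicate block gave 22 above and 9 below 0 h at 2 h, 29 above at 6 h and 19 over the course, and took the calls of Insig1 (adjusted p = 0.0101) and Srebf2 (0.0115) at 2 h; same-numbered deviations correlated at -0.0003 on average over 45 pairs of time points (-0.454 to 0.249), with 3 of 45 over 0.1. With library totals, Srebf2 at 24 h became -0.0432. Among the genes given library by library, leaving out a library left 349 comparisons, called or not, on their side of the threshold, took 16 calls and added 3, and the other settings left 713, took 6, added 16 and turned 1.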
